A study of Mus musculus with 6 samples.

Results

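The 9 mouse genes described here write, copy and remove methyl groups on DNA, or supply the metabolite that the removing enzymes need. They are Dnmt1, Dnmt3a, Dnmt3b, Uhrf1, Tet1, Tet2, Tet3, Idh1 and Idh2. Every probe set whose annotation named exactly 1 of these symbols was taken, which gave 23 of the 45101 probe sets on the array. The arrays measured RNA of sorted bone marrow progenitors that were lineage negative and Sca1 negative and carried cKit, the population called myeloerythroid progenitors. Of 6 arrays, 3 came from ICN2 positive mice, with genotype Rosa-lsl-ICN2 Mx1-cre+, and 3 from ICN2 negative littermates, with genotype Mx1-cre+. Both groups thus carried the cre transgene, and all mice were 6 weeks old and had been given polyIC 3 times at 20 mcg per g, with the cells collected 1 week later. The Mx1 promoter that drives cre responds to the interferon that polyIC evokes, in blood cells and in other interferon-responsive cells. Cre then removes the stop cassette before the ICN2 transgene, the intracellular and constantly active part of the receptor Notch2. Excision efficiency in the sorted cells was not measured in the files. All ICN2 positive samples were from males and all ICN2 negative samples from females, which leaves sex and genotype confounded (they cannot be told apart), although none of the 9 genes lies on a sex chromosome (0 of 9 on X or Y). Whether replicates were separate animals is not stated, so the p-values describe scatter among these arrays that may be technical.

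Dnmt1 is the maintenance methyltransferase that copies methylation of CpG sites to the new strand after replication, and Uhrf1 recognises the hemimethylated site and recruits Dnmt1 to it. Dnmt3a and Dnmt3b place methyl groups on unmethylated sites. The Tet dioxygenases oxidise 5-methylcytosine and so start its removal, with 2-oxoglutarate as a cosubstrate, which the isocitrate dehydrogenases Idh1 (cytosol) and Idh2 (mitochondria) produce. In mouse blood formation, Dnmt3a and Tet2 are best known for limiting the self-renewal of stem cells, and in humans both genes, and IDH1 and IDH2, are recurrently mutated in myeloid leukaemia.

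In ICN2 positive cells Dnmt3b rose 1.63-fold and Tet2 fell by 0.70 on the log2 scale, and the other 7 genes did not pass the test. The test was limma on log2 intensity over 12837 genes, adjusted by Benjamini-Hochberg and called under 0.05. Thus 1 of 9 genes was called higher and 1 of 9 lower, where 2.59% of all genes were called higher and 1.78% lower (4.36% in either direction). With each of the 6 arrays left out in turn, each of these calls held in 2 fits and was lost in 4. Without ICN2 positive replicate 1 both held, where 5.98% of all genes were called. Of the 23 probe sets, 22 were bright enough to be tested, and 3 of them were called (1 without ICN2 positive replicate 1), both of Dnmt3b and 1 of Tet2, against 2.65% of all probe sets (1.67% higher and 0.988% lower). A probe set was tested where it exceeded the 40th percentile of its array, 5.26 to 5.30 on the log2 scale, on at least 3 of 6 arrays. The median difference of the 9 genes was -0.12 (log2), against 0.02 over all genes tested. Values of the 3 arrays of 1 group lay wholly apart from those of the other in 4 of 9 genes (Dnmt3b and Tet3 higher, Tet2 and Idh1 lower in ICN2 positive cells). Over all genes 37.5% were apart in this way (20.7% higher and 16.9% lower), so this count is near the background.

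**Figure D1:**
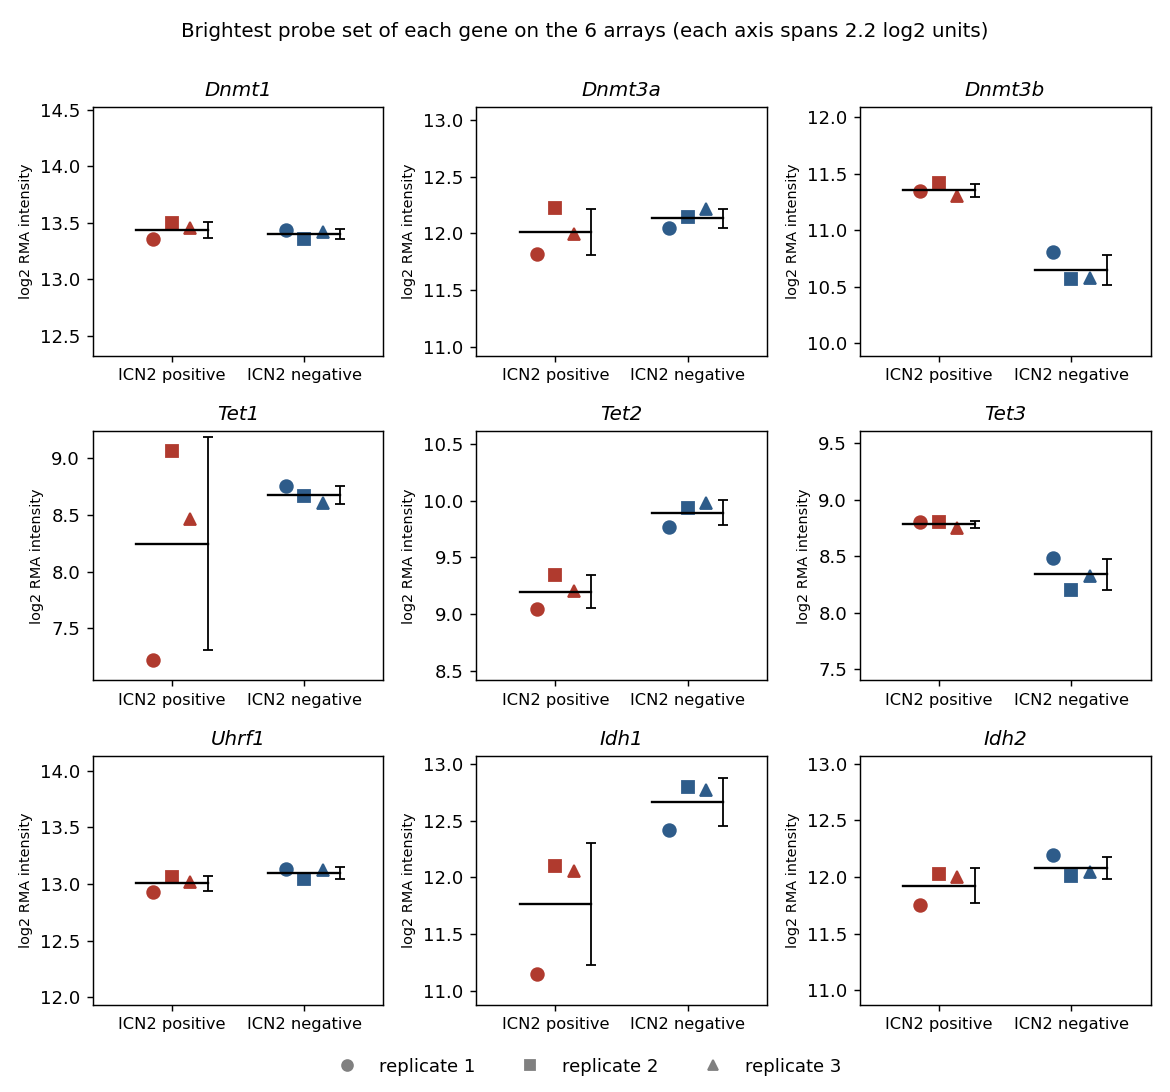
Log2 RMA intensity (y axis) of the brightest probe set of each of the 9 genes, with 3 ICN2 positive arrays at the left and 3 ICN2 negative arrays at the right of each panel; symbols mark the replicate, the long line is the mean and the bar beside it the SD (n = 3 per group). The ICN2 positive points lie above all ICN2 negative points for Dnmt3b and Tet3 and below them for Tet2 and Idh1.

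ICN2 positive replicate 1 stood apart from the other arrays. Over tested probe sets it correlated at 0.966 and 0.974 with ICN2 positive replicates 2 and 3, which correlated at 0.991 with each other, and the ICN2 negative arrays correlated at 0.989 to 0.991. It was the lowest of the 6 arrays in 14 of 22 tested probe sets of the 9 genes (63.6%), against 22.3% of all tested probe sets. Several of these probe sets read the same gene. By brightest probe set it was the lowest array in 6 of 9 genes, against 26.2% of all tested genes. Its gap between 3′ and 5′ control probe sets was the highest of the 6 arrays for 18S RNA (1.7, against 0.79 to 1.27 on the other arrays), beta-actin (1.01, against 0.71 to 0.85), Gapdh (0.73, against 0.63 to 0.66) and pyruvate carboxylase (1.97, against 1.46 to 1.90), but not for the transferrin receptor (2.92, against 2.86 to 3.28, all log2). The part of this gap in the results was not tested, and the difference of each gene is also given without that array. The cKit gene Kit, used in the sort, was above the 40th percentile on all 6 arrays in both of its probe sets, the brighter of them at 10.15, 10.70 and 10.86 in ICN2 positive cells, against 10.46, 10.50 and 10.38 in ICN2 negative cells (log2 intensity). Of the erythroid markers, 10 of 11 named on the array were bright enough to be tested, and of the granulocyte-monocyte progenitor markers 12 of 12. Passing the filter does not identify a cell type, since T lymphoid (9 of 10) and mast cell and basophil markers (11 of 12) passed too. Of the 10 erythroid markers 4 had higher and 6 lower means, and 1 was called, lower (Trim10, at -1.60), against 1.78% of all genes.

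The maintenance genes Dnmt1 and Uhrf1 had close values on all 6 arrays. Dnmt1 had log2 intensities of 13.36, 13.50 and 13.45 in ICN2 positive cells, against 13.44, 13.36 and 13.42 in ICN2 negative cells. The groups overlapped, and the difference was 0.03 ± 0.07 (SE), with a 95% interval of -0.14 to 0.20 (limma adjusted p = 0.8), and 0.069 without ICN2 positive replicate 1. The other Dnmt1 probe sets differed by 0.05 and -0.07, so the 3 probe sets had different signs. The brightest of them may read other transcripts as well, as the suffix _x_at of its name marks. Uhrf1 had 12.93, 13.06 and 13.02 in ICN2 positive cells, against 13.13, 13.04 and 13.12 in ICN2 negative cells. These groups also overlapped, with a difference of -0.09 ± 0.07 and an interval of -0.26 to 0.08 (limma adjusted p = 0.425), and -0.057 without ICN2 positive replicate 1. The dimmer Uhrf1 probe set differed by -0.05. A change of Dnmt1 or Uhrf1 smaller than these intervals was not detectable with 3 arrays per group.

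Of the de novo methyltransferases, Dnmt3b rose and Dnmt3a did not pass the test. Dnmt3b lies on chromosome 2 (GRCm38.p6, 153649411 to 153687730), and its annotated promoter is shown because it is the gene of the group with the smallest p; that of Tet2, the gene that fell, follows for comparison. Capitals mark CpG dinucleotides, the sites these enzymes act on, in the 250 bases before the transcription start (RefSeq, GRCm38.p6), written 5′ to 3′ on the strand of the gene.
Dnmt3b, chr2:153649199-153649448, plus strand: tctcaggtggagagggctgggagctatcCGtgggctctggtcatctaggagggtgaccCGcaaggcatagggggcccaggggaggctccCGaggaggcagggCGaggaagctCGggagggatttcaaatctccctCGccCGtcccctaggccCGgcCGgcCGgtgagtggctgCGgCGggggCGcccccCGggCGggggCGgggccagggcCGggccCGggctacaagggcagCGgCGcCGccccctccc
Tet2, chr3:133544391-133544640, minus strand: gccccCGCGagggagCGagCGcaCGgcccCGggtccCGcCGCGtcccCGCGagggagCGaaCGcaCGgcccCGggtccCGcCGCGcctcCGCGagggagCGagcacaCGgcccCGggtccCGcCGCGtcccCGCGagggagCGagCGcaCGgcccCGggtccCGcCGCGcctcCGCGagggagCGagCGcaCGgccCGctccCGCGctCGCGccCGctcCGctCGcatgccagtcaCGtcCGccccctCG
Each window precedes the 1 start that the promoter table lists for the gene, which lies inside the gene span given here, so the Tet2 window is wholly within its gene span and the Dnmt3b window overlaps the start of its own. The Dnmt3b window held 21 CpG sites and the Tet2 window 51, against a median of 6 and an upper quartile of 16 over the 32851 promoter windows of the table. In all, 15 transcription starts of the 9 genes were listed, with 2 to 51 CpG sites, and every one of the 9 genes had at least 1 start above the median of 6. Genes with several starts pass this more easily, and the share of all genes that pass was not computed.

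The brighter Dnmt3b probe set had log2 intensities of 11.35, 11.42 and 11.30 in ICN2 positive cells, against 10.80, 10.57 and 10.58 in ICN2 negative cells. All ICN2 positive arrays were above all ICN2 negative arrays, with group means of 11.35 ± 0.06 and 10.65 ± 0.13 (SD, n = 3 each). The rise was 0.70 ± 0.09 (difference ± SE, log2), which is 1.63-fold, with a 95% interval of 0.48 to 0.92 and an adjusted p of 0.0209 in limma. The dimmer probe set had 9.47, 9.40 and 9.28 in ICN2 positive cells, against 8.57, 7.92 and 8.34 in ICN2 negative cells. It was also apart between the groups and rose by 1.11 ± 0.17 (adjusted p over probe sets = 0.0405 in limma), so both probe sets of the gene were called in the same direction and differed in size. Without ICN2 positive replicate 1 the rise of the brighter probe set was 0.71 (adjusted p = 0.0319), and that of the dimmer one was 1.07 and not called (adjusted p over probe sets = 0.0678). Leaving out either ICN2 negative replicate 2 or 3 ended the call (adjusted p = 0.0935 and 0.1), as did leaving out ICN2 positive replicate 2 or 3 (adjusted p = 0.0582 and 0.0742), while the difference stayed between 0.66 and 0.78.

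Some markers of other cell types were higher in the ICN2 positive arrays, as Dnmt3b was. Over all genes 2.59% were called higher and 1.78% lower, the shares to set beside the counts called below. Of 9 tested T lymphoid markers, 9 had higher means in ICN2 positive cells, with a median difference of 1.35, and 1 was called higher (Il2ra, 3.37). Their summed linear intensity was 1550 to 3611 in ICN2 positive cells, against 465 to 854 in ICN2 negative cells. Of 11 mast cell and basophil markers, 6 had higher means in ICN2 positive cells and 5 lower, with a median of 0.08. Among the lower were Hdc (-1.49) and Fcer1a (-1.35), neither called. Without ICN2 positive replicate 1, Hdc differed by -0.35 and Fcer1a by 0.31. Of the 11, 4 were called higher (among them Il4, at 2.92, and the protease gene Mcpt1, at 6.45) and 0 lower. The summed intensity of this list overlapped between the groups. It was 5524, 29794 and 22963 in ICN2 positive replicates 1, 2 and 3, against 13983 to 17535 in ICN2 negative cells. Without ICN2 positive replicate 1 the median of this list was 0.92. Then 5 were called higher and 0 lower, against 5.98% of all genes in either direction. Of 5 cytotoxic cell markers, 4 had higher means and 1 lower (Nkg7, -0.30), with a median of 0.08. The granzyme genes Gzma (5.94) and Gzmb (5.07) were called higher and 0 lower. The summed intensity of these markers was 14151 to 24467 in ICN2 positive cells, against 11884 to 13392 in ICN2 negative cells. Of 7 stem cell markers, 5 had higher means in ICN2 positive cells and 2 lower. In limma 0 of them were called, and 2 had an unadjusted p under 0.05, against 27.4% of all genes. Their median was 0.46 and their summed intensity 1106 to 3170 in ICN2 positive cells, against 664 to 1299 in ICN2 negative cells. Without ICN2 positive replicate 1 their median was 0.87. Then 2 were called higher and 0 lower, against 5.98% of all genes in either direction. The pre-T cell receptor gene Ptcra, the mast cell tryptase gene Tpsab1, the NK receptor gene Ncr1 and the stem cell gene Hoxb5 were below the filter. The summed intensities of these lists include them, while the counts and medians do not. The part of these cells in the Dnmt3b rise was not tested.

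Dnmt3a, on chromosome 12, was read by 5 probe sets, none of them called. The brightest had 11.82, 12.22 and 11.99 in ICN2 positive cells, against 12.05, 12.14 and 12.21 in ICN2 negative cells (log2 intensity). The groups overlapped, and the difference was -0.12 ± 0.12, with an interval of -0.42 to 0.17 (limma adjusted p = 0.542). The other 4 probe sets differed by -0.44 to -0.01 and had wider spreads, since ICN2 positive replicate 1 was the lowest array in all 5. In the probe set with the difference of -0.44 that array stood at 8.34, against 9.52 and 9.19 in the other ICN2 positive arrays and 9.58, 9.32 and 9.48 in ICN2 negative cells. Without it the 5 differences were -0.11 to 0.23 and none was called. Within each array, the brightest Dnmt3b value minus the brightest Dnmt3a value was -0.47, -0.81 and -0.69 in ICN2 positive cells, against -1.24, -1.58 and -1.63 in ICN2 negative cells. The sign of these within-array values depends on the probes and has no meaning, but their group difference of 0.83 describes how unequally the paralogs moved. The pair was chosen after the values were seen and was not tested.

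**Figure D2:**
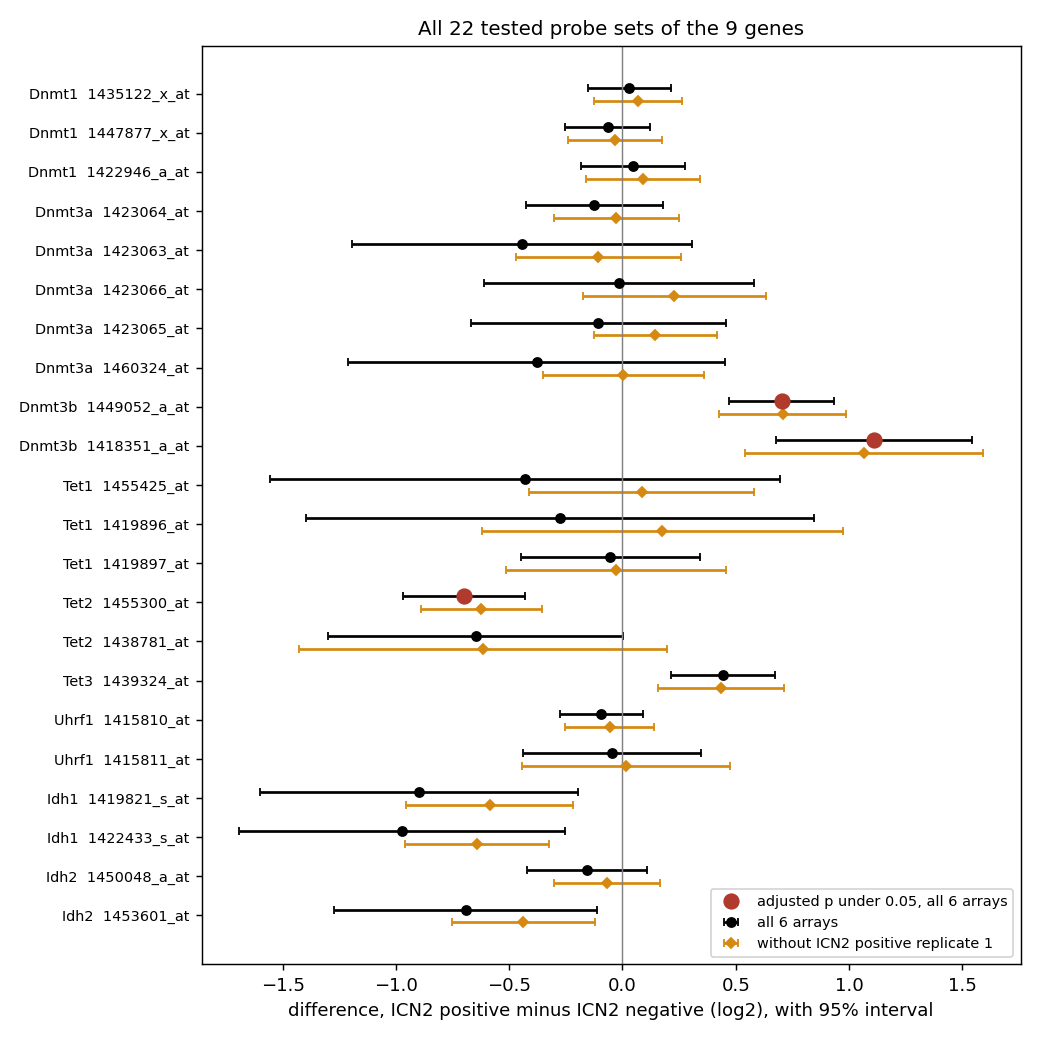
Difference between ICN2 positive and ICN2 negative cells (x axis, log2 units, bars for the 95% interval of limma over probe sets) for each of the 22 tested probe sets (y axis), with all 6 arrays (circles, red where adjusted p was under 0.05) and without ICN2 positive replicate 1 (diamonds). The 2 Dnmt3b probe sets and 1 Tet2 probe set are called, and without that array the intervals narrow for all 5 Dnmt3a probe sets and for 2 of 3 Tet1 probe sets.

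Of the 3 Tet dioxygenases, Tet2 fell, Tet3 was higher without passing the test and Tet1 was not separated. Tet2 lies on chromosome 3 (133463677 to 133545136). Its brighter probe set had log2 intensities of 9.05, 9.35 and 9.20 in ICN2 positive cells, against 9.77, 9.94 and 9.98 in ICN2 negative cells. All ICN2 positive arrays were below all ICN2 negative arrays, with means of 9.20 ± 0.15 and 9.90 ± 0.11 (SD, n = 3 each). The fall was -0.70 ± 0.11 (log2), so ICN2 negative cells were 1.62-fold higher, with an interval of -0.96 to -0.44 and an adjusted p of 0.0302 in limma. The dimmer Tet2 probe set had 7.39, 7.98 and 6.999 in ICN2 positive cells, against 7.91, 8.33 and 8.07 in ICN2 negative cells. Here the groups overlapped, since ICN2 positive replicate 2 lay above ICN2 negative replicate 1, and the difference of -0.65 ± 0.26 was not called (adjusted p over probe sets = 0.207 in limma, and -0.62 with 0.32 on leaving out ICN2 positive replicate 1). The mean of both probe sets differed by -0.67 and was not called (adjusted p = 0.0777).

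The Tet2 difference was -0.62 without ICN2 positive replicate 1 (adjusted p = 0.0368 over genes and 0.0534 over probe sets). Leaving out any 1 of ICN2 negative replicates 1, 2 and 3 ended the call (adjusted p = 0.0575, 0.127 and 0.124), as did leaving out ICN2 positive replicate 3 (adjusted p = 0.103), with the difference between -0.77 and -0.62. Among markers of monocytes and dendritic cells, 7 of 8 tested genes had lower means in ICN2 positive cells, with a median difference of -1.88, and the chemokine receptor gene Cx3cr1 was higher (0.59). Of the 8, 1 was called, lower (the receptor gene Flt3, at -3.71), against 1.78% of all genes. Without ICN2 positive replicate 1, 4 were called, all lower, against 5.98% of all genes in either direction, with a median of -1.64. Over all 9 of these markers named on the array, the summed linear intensity was 2059 to 5373 in ICN2 positive cells, against 13165 to 18184 in ICN2 negative cells. Only the integrin gene Itgam of these was below the filter, and arrays give no true zero. Lower values were not particular to this list. Of 7 tested B lymphoid markers, 7 had lower means, with a median of -2.36, and 1 was called, lower (Dntt, at -4.39). Medians were also below 0 for late neutrophil (-0.63) and megakaryocyte markers (-0.39), with 7 of 8 and 4 of 5 means lower. Without ICN2 positive replicate 1 the B lymphoid, late neutrophil and megakaryocyte medians were -2.04, -0.24 and -0.001. Of the late neutrophil markers 1 was called, lower (Mmp8, at -1.45), and of the megakaryocyte markers 0. Mmp8 was still called without that array (-1.50). Its ICN2 positive values of 5.18, 5.22 and 4.82 lay below the filter of 5.26 to 5.30. The part of these cells in the Tet2 difference was not tested, and in such bulk samples fewer cells of a type and less RNA per cell cannot be told apart.

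Tet3, on chromosome 6 (83362373 to 83457208), was read by 1 probe set. It had 8.80, 8.80 and 8.75 in ICN2 positive cells, against 8.48, 8.21 and 8.33 in ICN2 negative cells (log2 intensity). All ICN2 positive arrays were above all ICN2 negative arrays, and the difference was 0.44 ± 0.09, with an interval of 0.22 to 0.66, just beyond the threshold (limma adjusted p = 0.0558). With a filter at the 60th percentile, which leaves fewer genes to adjust over, Tet3 was called (adjusted p = 0.0461), and without ICN2 positive replicate 1 it was not (0.43, adjusted p = 0.0829). Within each array, Tet3 minus Tet2 was -0.24, -0.54 and -0.46 in ICN2 positive cells, against -1.29, -1.73 and -1.65 in ICN2 negative cells, again a description of a pair chosen after the values were seen. The group difference of this within-array value was 1.14.

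Tet1, on chromosome 10, had 4 probe sets, of which 1 was above the 40th percentile on only 2 of 6 arrays and was not tested. The brightest had 7.22, 9.06 and 8.46 in ICN2 positive cells, against 8.76, 8.67 and 8.61 in ICN2 negative cells (log2 intensity). ICN2 positive replicate 1 was far below and ICN2 positive replicate 2 above all ICN2 negative arrays, so the SD was 0.94 in ICN2 positive cells and 0.08 in ICN2 negative cells. The difference was -0.43 ± 0.46 (interval -1.57 to 0.71, limma adjusted p = 0.581), and 0.08 without ICN2 positive replicate 1 (interval -0.41 to 0.58). The other tested probe sets differed by -0.28 and -0.05. Neither a rise nor a fall of Tet1 was detectable at this spread.

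**Figure D3:**
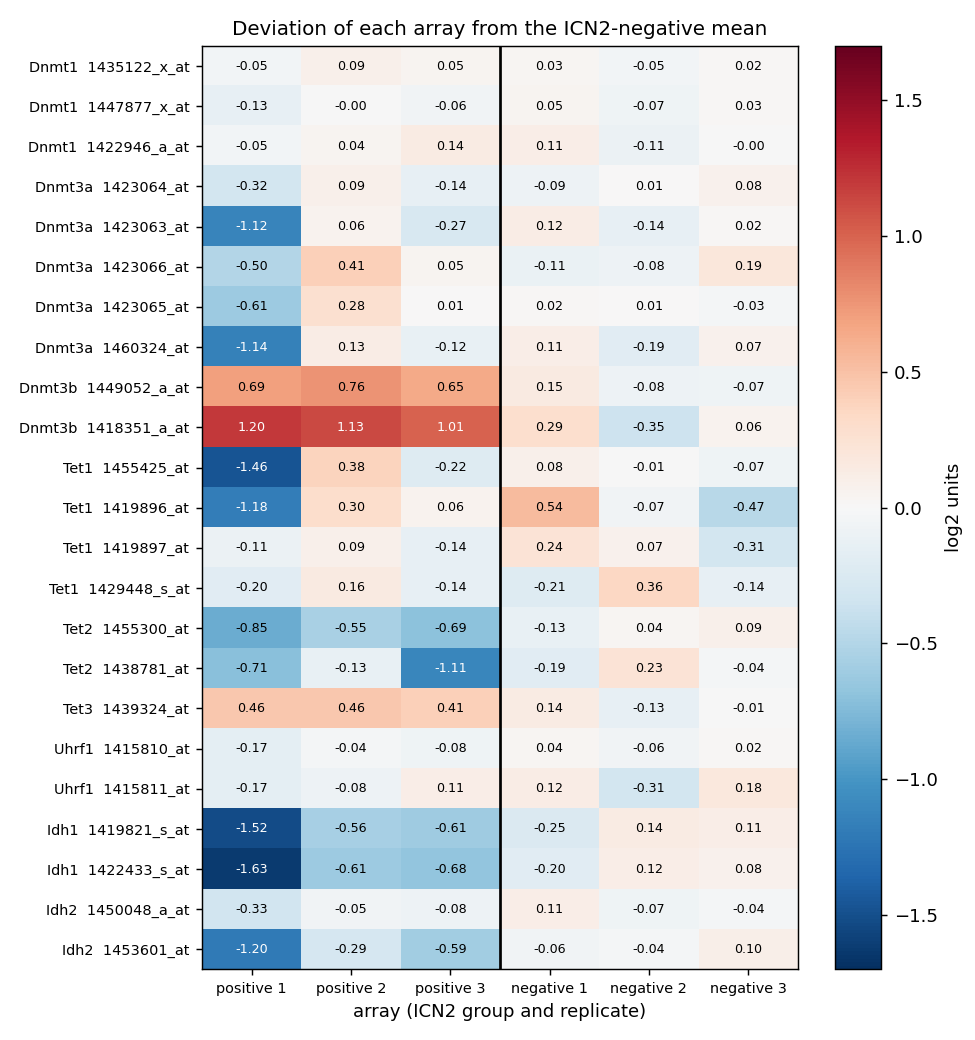
Deviation of each array (columns, ICN2 positive at the left of the line and ICN2 negative at the right) from the mean of the ICN2 negative arrays, in log2 units, for all 23 probe sets of the 9 genes (rows). The deepest blue cells are in ICN2 positive replicate 1, in probe sets of Dnmt3a, Tet1, Idh1 and Idh2. The 3 ICN2 positive arrays are all above 0 for Dnmt3b and Tet3 and all below 0 for both probe sets of Tet2, Idh1 and Idh2.

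Of the isocitrate dehydrogenases, Idh1 had the largest difference among the 9 genes by brightest probe set with all 6 arrays, without passing the test; without ICN2 positive replicate 1, and with array weights, Dnmt3b and Tet2 differed by more. It had log2 intensities of 11.15, 12.10 and 12.06 in ICN2 positive cells, against 12.42, 12.80 and 12.77 in ICN2 negative cells. The groups did not overlap, but ICN2 positive replicate 1 lay well below its own group. The difference was -0.90 ± 0.29, with an interval of -1.61 to -0.19 (limma adjusted p = 0.122). The other Idh1 probe set had 10.91, 11.92 and 11.86 in ICN2 positive cells, against 12.34, 12.65 and 12.61 in ICN2 negative cells, and differed by -0.97 (adjusted p over probe sets = 0.128 in limma). Both carry the suffix _s_at, which marks probe sets that may read several transcripts. Without ICN2 positive replicate 1 the Idh1 difference was -0.59 (interval -0.95 to -0.23, adjusted p = 0.0837), and that of the other probe set was -0.64.

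The brighter Idh2 probe set had 11.75, 12.03 and 12.00 in ICN2 positive cells, against 12.19, 12.01 and 12.04 in ICN2 negative cells (log2 intensity). The groups overlapped, with a difference of -0.16 ± 0.10 and an interval of -0.41 to 0.10 (limma adjusted p = 0.378), and -0.069 without ICN2 positive replicate 1. The dimmer Idh2 probe set differed by -0.69 with no overlap (adjusted p over probe sets = 0.155 in limma), and by -0.44 without ICN2 positive replicate 1, so the 2 probe sets differed in size. Granulocyte-monocyte progenitor markers were lower in the same arrays as Idh1, and most of all in ICN2 positive replicate 1. Means were lower in ICN2 positive cells for all 12 tested markers, with a median difference of -1.77. In limma 0 were called, and 4 of 12 had an unadjusted p under 0.05, against 27.4% of all genes. Without ICN2 positive replicate 1, 7 were called, all lower, against 5.98% of all genes in either direction. By array, the median deviation of these markers from the ICN2 negative mean was -3.52, -0.63 and -0.85 in ICN2 positive replicates 1, 2 and 3, against -0.12, 0.05 and 0.08 in ICN2 negative replicates. Their summed linear intensity was 12215 to 74519 in ICN2 positive cells, against 100611 to 114008 in ICN2 negative cells, and no marker named on the array fell below the filter. The part of these cells in the Idh1 and Idh2 differences was not tested.

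**Figure D4:**
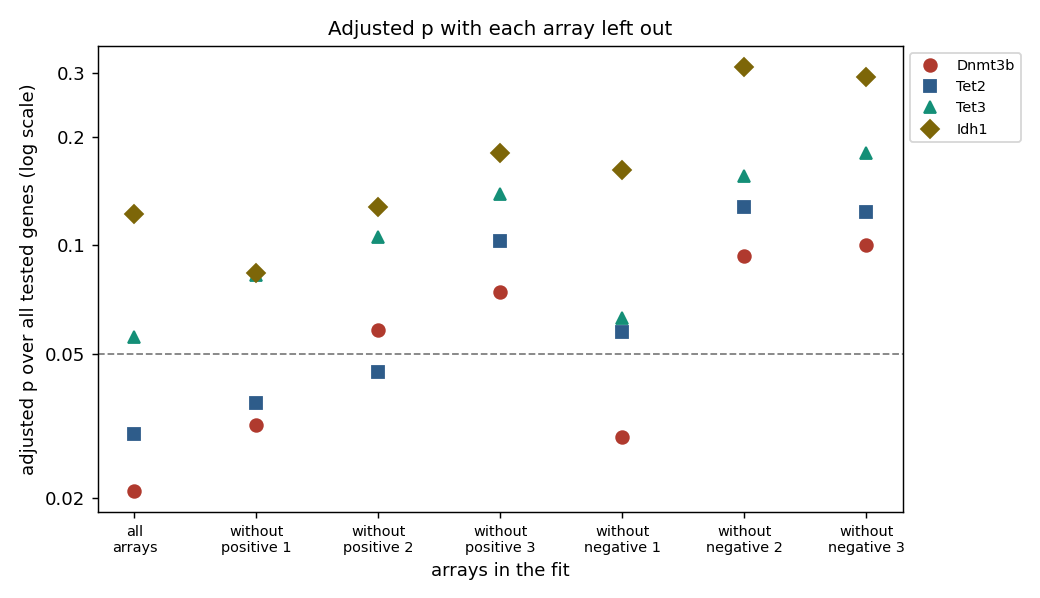
Adjusted p over 12837 genes (y axis, log scale, dashed line at 0.05) of Dnmt3b, Tet2, Tet3 and Idh1 with all 6 arrays and with each array left out (x axis). Dnmt3b and Tet2 are both under the line with all arrays and without ICN2 positive replicate 1, and both over it without ICN2 negative replicate 2 or 3 or ICN2 positive replicate 3; Tet3 and Idh1 are over it throughout.

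None of 79 tested genes of 5 lists around these enzymes was called in limma, which is 0 of 79 against 4.36% of all genes, and 12 of 79 (15.2%) had an unadjusted p under 0.05, against 27.4% of all genes. The lists held 92 genes, of which the other 13 had no probe set of their own above the filter. Among partners that recruit or assist the methyltransferases, 0 of 9 were called and the median difference was 0.06, with 8 of 9 means higher in ICN2 positive cells. The histone methyltransferase gene Setdb1 differed by 0.48 ± 0.15 (adjusted p = 0.113) and Trim28, a corepressor that recruits it, by 0.25 (adjusted p = 0.157). Cdca7, a partner of the remodeller Hells, differed by 0.30 (adjusted p = 0.131). Dnmt3l, the cofactor of the de novo enzymes that has no catalytic activity of its own, differed by -0.61 ± 0.20 (limma adjusted p = 0.132). It had 5.35, 6.00 and 6.00 in ICN2 positive cells, against 6.27, 6.35 and 6.56 in ICN2 negative cells (log2 intensity). ICN2 positive replicate 1 was thus just above the filter of 5.26 to 5.30, and the Dnmt3l difference was -0.39 without that array.

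In the list of proteins that bind methylated CpG and of their paralogs, not all of which bind it, 0 of 8 were called, with a median difference of -0.03. Mbd3, a subunit of the NuRD complex, differed by 0.43 ± 0.10 (adjusted p = 0.0708), Mbd4, a glycosylase for mismatches at CpG sites, by -0.28, the zinc finger gene Zbtb4 by -0.62 and the Uhrf1 paralog Uhrf2 by -0.13. Among demethylation and base excision repair genes, 0 of 17 were called, with a median of 0.02. Gadd45b, a stress-induced gene linked to active demethylation, had 7.07, 9.02 and 8.79 in ICN2 positive cells, against 9.76, 10.11 and 10.55 in ICN2 negative cells (log2 intensity). It had the largest difference of the 5 lists, -1.85 ± 0.55, and did not pass the test (adjusted p = 0.111; it was -1.24 and the adjusted p 0.0572 on leaving out ICN2 positive replicate 1). The repair genes Neil3 (-0.39), Lig3 (0.36) and Smug1 (0.36) were not called either. In the list of methyl donor and 2-oxoglutarate metabolism 0 of 21 were called, with a median of 0.06. D2hgdh, which oxidises D-2-hydroxyglutarate back to 2-oxoglutarate, differed by -0.36 ± 0.08 (adjusted p = 0.0736). Idh3a, the catalytic subunit of the other mitochondrial isocitrate dehydrogenase, differed by 0.16, Ogdh, which consumes 2-oxoglutarate, by 0.19 and Mat2b, a regulatory subunit of S-adenosylmethionine synthesis, by -0.15.

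Dnmt1 and Uhrf1 are known to be expressed in S phase, so genes of DNA replication were read beside them. Of these, 0 of 24 were called, with a median difference of -0.05 and 17 of 24 means lower in ICN2 positive cells (0 called and a median of -0.046 without ICN2 positive replicate 1). The summed linear intensity of the list was 141641 to 144205 in ICN2 positive cells, against 143889 to 148402 in ICN2 negative cells. Mcm4 and Gins1, genes of the replicative helicase, differed by -0.15 and -0.18, the transcription factor gene E2f1 by -0.37 ± 0.13 (adjusted p = 0.138) and the chromatin assembly gene Chaf1b by 0.28.

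**Figure D5:**
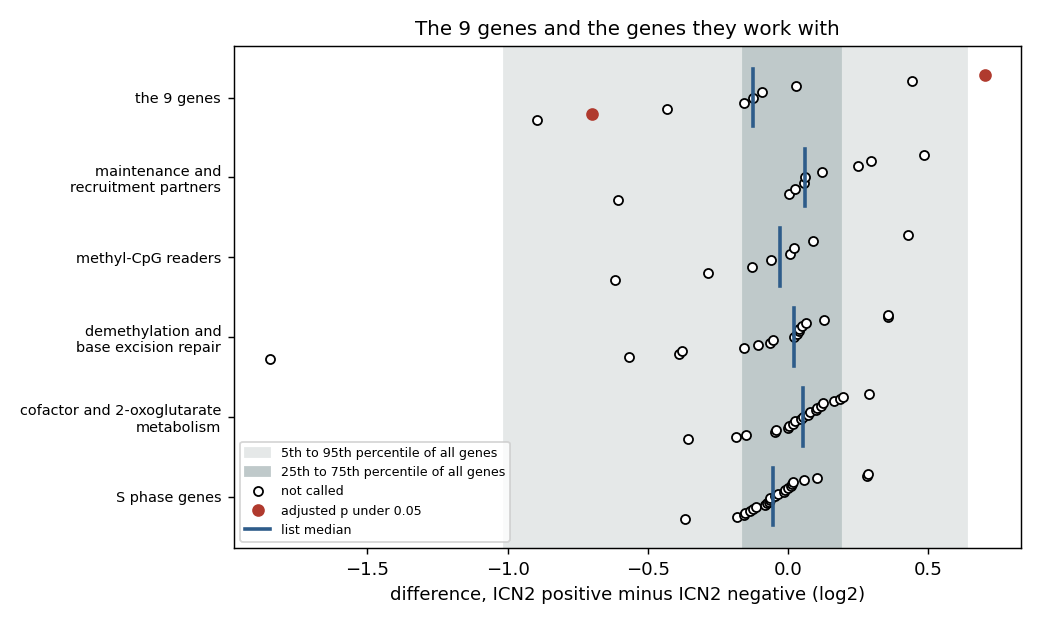
Difference between ICN2 positive and ICN2 negative cells (x axis, log2) of each tested gene in the 9-gene set and the 5 surrounding lists (rows), with the list median as a line and shading from the 25th to the 75th and from the 5th to the 95th percentile of all 12837 genes. Filled points, Dnmt3b and Tet2, passed an adjusted p of 0.05, and the list medians lie between -0.12 and 0.06.

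Genes whose profile over the 6 arrays was nearest to the 2 called genes were found by the root mean square difference of values centred on each gene's mean, in log2 units. Nearest to Dnmt3b were Tmem131 (0.04), Spr (0.05) and Adgrl2 (0.06), which differed by 0.68, 0.70 and 0.67. Nearest to Tet2 were Xbp1 (0.04), Rere (0.04) and Ift57 (0.06), which differed by -0.69, -0.68 and -0.64. Both trios follow from the size of the group difference and were not tested. Spr encodes sepiapterin reductase of tetrahydrobiopterin synthesis, and Xbp1 a transcription factor of the unfolded protein response.

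The promoter windows were also searched on both strands for TGGGAA, the core of the motif of RBPJ, the DNA-binding partner of the Notch intracellular domain. It was present in 4 of 15 starts of the 9 genes (1 start each of Dnmt1, Dnmt3a, Tet1 and Tet3), against 21.6% of all 32851 windows. Neither the Dnmt3b nor the Tet2 window shown above held it. The longer GTGGGAA, which contains the core, was in 0 of 15, against 5.42% of all windows. The E2F motifs TTTCCCGC and TTTGGCGC were also in 0 of 15, against 0.89% and 0.42%. A match or its lack describes these letters in these windows only.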

How the data were processed

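Gene expression was measured on Affymetrix arrays of amplified RNA from 5 ng per sample, per the labels' protocols. The authors deposited 1 linear intensity per probe set and array, made with RMA (background correction, quantile normalization, summary over probes), per the submitters' processing notes; no version of it is named there. Array medians lay between 6.05 and 6.09 (log2); RMA equalises the arrays, so a change in total RNA would not be seen. The number of arrays limits the precision.

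Here log2 was taken and 64 control probe sets were left out. Genes came from the platform annotation: 34958 probe sets had 1 gene, 932 several and 9211 none listed, and only the first kind was named. Testing covered 27424 probe sets and 12837 genes, a gene being read by its brightest probe set on average, with limma 3.58.1 in R 4.3.3 (lmFit, eBayes, no covariate, Benjamini-Hochberg). Groups came from the sample titles. Intervals are 95% intervals of the fit, not adjusted for the number of genes. The fit was tested on simulated data. The 9 genes and all lists were chosen with earlier results of these data known. Named genes were the 9 with every probe set, up to 4 genes of smallest p per list, and the 3 nearest profiles of each called gene. Positions and promoters came from RefSeq tables (GRCm38.p6), which matched all 9 genes. Alternatives changed the filter, the normalization, the eBayes model, array weights, how probe sets stand for a gene and the replicate term, or left out 1 array.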

Additional observations from a re-analysis of the deposited data

How the results depend on the processing

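Directions of Dnmt3b, Tet2, Tet3, Idh1, Dnmt1, Dnmt3a, Uhrf1 and Idh2, by brightest probe set, held under every alternative that gave them a value; Tet1 turned to 0.085 without ICN2 positive replicate 1. Dnmt3b was called under 9 of 14 alternatives (adjusted p = 0.00381 to 0.1 over all 14) and Tet2 under 10 of 15 (adjusted p = 0.00365 to 0.127). Leaving out probe sets with the suffixes _x_at, _s_at and _a_at left Dnmt1, Dnmt3b and Idh1 with none.

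The number of the 9 genes called was 4 with array weights (Tet3, adjusted p = 0.0115, and Idh1, -0.66 with adjusted p = 0.029, in addition), and 1 with the mean of probe sets, without the suffixed probe sets and with the replicate block. With 1 array left out it was 0 to 2. Probe sets of the 9 genes called were 6 with array weights, 0 with the replicate block (in limma) and 0 to 1 with 1 array left out. Of all 12837 genes, 3262 were called with array weights, 340 with the replicate block and 99 to 768 with 1 array left out. Of all 27424 probe sets, 3970, 268 and 95 to 860 were called under the same alternatives, and 1252 with trend and robust eBayes. In the 5 lists, 1 of 79 genes was called with trend and robust eBayes (D2hgdh, -0.36, limma adjusted p = 0.0444), against 835 of all 12837 genes. Without the suffixed probe sets 1 of 68 was called (Parp1, 0.50, limma adjusted p = 0.0421), against 501 of all 11257 genes. With array weights 10 of 79 were called, against 3262 of all 12837 genes. With any array left out 0 were called. Fewer arrays leave fewer degrees of freedom; otherwise the cause was not tested.

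With the replicate number as a block, the adjusted p was 0.0569 for Dnmt3b and 0.0484 for Tet2. Deviations of same-numbered arrays from their group means correlated at 0.18, 0.14 and 0.09. ICN2 positive replicates 1 and 2 correlated best with their own number, and replicate 3 with ICN2 negative replicate 2 (0.16). Deviations of 3 arrays from their own mean depend on each other, so these values cannot decide whether the numbers mark pairs. The main fit did not take them as pairs.

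With array weights the signs turned in the dimmer Uhrf1 probe set (0.035), a dimmer Tet1 probe set (0.083) and 2 dimmer Dnmt3a probe sets (0.017 and 0.035). With 1 array left out, probe sets whose sign turned ranged from -0.20 to 0.045 for Uhrf1, from -0.0076 to 0.10 for Dnmt1, from -0.30 to 0.15, -0.23 to 0.23 and -0.63 to 0.00386 for Dnmt3a, and from -0.56 to 0.18, -0.21 to 0.066 and -0.84 to 0.085 for Tet1.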
